A study of Mus musculus with 6 samples.

Results

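The genes of the caveolar coat were followed in cells sorted from mouse small cell lung tumours. The members were named by symbol: the caveolins Cav1 and Cav2, the cavins Cavin1, Cavin2 and Cavin3, and the membrane-shaping proteins Ehd2, Pacsin2 and Pacsin3. Every probe set annotated to exactly 1 of these symbols was taken, which gave 18 of the 45037 probe sets tested, for 7 of the 8 genes. Cav1 and Cavin3 had 1 probe set each, Cav2 had 2, Cavin1, Cavin2 and Pacsin3 had 3 each and Ehd2 had 5. Pacsin2 was not analysed here. The family was chosen by function, but with its differences between the sorted fractions, above all that of Cav1, already known. Those values are therefore given below as a description.

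The arrays compared 3 samples of tumour-propagating cells (TPCs) with 3 samples of non-TPCs. Mice 1127, 920 and 0107 each gave 1 sample of either kind, so the fractions are paired by animal. All 6 samples came from animals of a mixed C57BL/6;129Sv/J background that carry the Rb/p53/p130 triple knockout model, whose tumours were collected 6 to 7 months after infection with Adeno-Cre, a virus that delivers the recombinase. No animal was treated. The fractions were separated by staining for CD24, CD44 and EpCAM, and neither the gates nor the promoter that drives the recombinase is given in the sources used here. Each value is the log2 signal of a probe set after RMA, a method that corrects the background, equalises the arrays and summarises the probes. The array medians were 6.00 to 6.04 and the first quartiles 4.52 to 4.65. A bright probe set of one gene cannot be set against that of another, so the levels of a gene are compared between samples only. The sums over marker lists given below lean on their brightest probe sets and do not weigh the genes equally.

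Caveolae are small flask-shaped pits of the plasma membrane. Caveolins are inserted into the inner leaflet, where they assemble into oligomers, and cavins join them from the cytosol to form the outer coat. The ATPase EHD2 holds the pits at the cell surface, and PACSIN proteins bind and bend membrane through an F-BAR domain. In lung, caveolae are abundant in endothelial cells, alveolar type 1 cells, fibroblasts and smooth muscle, and they are known for buffering membrane tension and for organising signalling proteins and lipid transport.

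Cav1 and Cav2 are neighbours on chromosome 6. The 250 bases before their starts, and those before the start of Cavin2 on chromosome 1, are shown because these 3 genes had main probe sets whose levels did not overlap between the fractions. The main probe set of a gene is the one with the highest mean over the 6 arrays. The sequences are those of RefSeq on build GRCm38.p6, all on the plus strand, at chr6:17306085-17306334 for Cav1, chr6:17280935-17281184 for Cav2 and chr1:51288876-51289125 for Cavin2. For Cav1, which has 2 starts in that table, the upstream one was taken. Cavin3 was not in the table. Capitals mark 4 short motifs searched on both strands, none of which overlapped another.
Cav1: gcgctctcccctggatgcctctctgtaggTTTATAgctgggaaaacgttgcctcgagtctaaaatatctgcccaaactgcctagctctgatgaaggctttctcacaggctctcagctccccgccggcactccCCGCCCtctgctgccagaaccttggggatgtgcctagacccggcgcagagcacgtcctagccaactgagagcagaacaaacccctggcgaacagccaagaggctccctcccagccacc
Cav2: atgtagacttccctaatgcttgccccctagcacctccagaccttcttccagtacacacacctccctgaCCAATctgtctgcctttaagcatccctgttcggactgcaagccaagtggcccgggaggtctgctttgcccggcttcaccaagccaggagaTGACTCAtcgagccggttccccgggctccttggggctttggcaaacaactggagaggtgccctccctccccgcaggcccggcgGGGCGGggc
Cavin2: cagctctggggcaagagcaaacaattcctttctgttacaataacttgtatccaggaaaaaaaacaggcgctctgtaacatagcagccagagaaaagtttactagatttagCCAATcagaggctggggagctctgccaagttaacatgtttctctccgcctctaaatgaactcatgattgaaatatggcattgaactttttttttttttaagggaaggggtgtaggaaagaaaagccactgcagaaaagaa

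The motifs were the TATA box TATAAA, the CCAAT box CCAAT, the GC box GGGCGG and the AP-1 motif TGANTCA. Of 32851 RefSeq windows of the same length, 12.4% held the TATA box, 33.8% the CCAAT box, 32.7% the GC box and 6.75% the AP-1 motif. The Cav1 window held a TATA box, which begins 221 bases before the start, and a GC box 118 bases before it. The Cav2 window held a CCAAT box at 182, an AP-1 motif at 92 and a GC box at 9 bases before the start, and the Cavin2 window held only a CCAAT box, at 140. No motif was in all 3 windows, but Cav1 and Cav2 both held a GC box, and Cav2 and Cavin2 both held a CCAAT box. These matches describe the letters and say nothing of a factor bound there.

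Cav1, the caveolin without which non-muscle cells form no caveolae, stood furthest apart between the fractions among the 18 probe sets. Its level was 5.92, 6.78 and 5.90 in TPCs of mice 1127, 920 and 0107, against 9.91, 8.97 and 10.17 in non-TPCs of the same mice. All TPC samples lay below all non-TPC samples, with a gap of 2.19 between the highest TPC and the lowest non-TPC value. TPCs averaged 6.20 ± 0.51 (SD, n = 3) and non-TPCs averaged 9.68 ± 0.63 (SD, n = 3), a difference of -3.48 on the log2 scale (SE 0.38), or 11.2-fold lower in TPCs. Within mice 1127, 920 and 0107 Cav1 was 15.8-fold, 4.55-fold and 19.3-fold lower in TPCs. Mouse 920 had the highest TPC level and the lowest non-TPC level, and so the smallest difference. The TPC values of the other mice lay just under the median of their arrays. In sorted bulk samples, fewer cells that carry a transcript and less transcript per cell cannot be told apart.

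Cav2, the partner that needs CAV1 to reach the cell surface, differed much less. Its main probe set was at 9.66, 9.89 and 9.23 in TPCs of mice 1127, 920 and 0107 and at 10.27, 10.22 and 10.51 in non-TPCs. TPC samples were again all below non-TPC samples, here with a gap of 0.33, and the signal was bright in both fractions. The difference was -0.74 (SE 0.20), with within-mouse values of -0.62, -0.33 and -1.28 in mice 1127, 920 and 0107. The second Cav2 probe set was close to the array median at 6.34 to 6.64 in TPCs and 6.37 to 6.63 in non-TPCs, and it differed by -0.04 (SE 0.14). The order of the mice by size of difference was the same for Cav1 and the main Cav2 probe set: mouse 0107, then 1127, then 920.

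Cavin2, which helps to curve caveolar membrane, was lower in TPCs with each of its 3 probe sets. The main one was at 6.10, 6.84 and 7.29 in TPCs of mice 1127, 920 and 0107, against 8.51, 7.90 and 8.97 in non-TPCs. The groups did not overlap, although the highest TPC sample, from mouse 0107, came within 0.61 of the lowest non-TPC sample, from mouse 920. TPCs averaged 6.74 ± 0.60 (SD, n = 3) and non-TPCs averaged 8.46 ± 0.54 (SD, n = 3), a difference of -1.71 (SE 0.38) or 3.28-fold lower in TPCs. The other probe sets of Cavin2 differed by -2.07 (SE 0.45) and -2.22 (SE 0.39), also without overlap. All 3 gave the largest difference in mouse 1127, from -3.33 to -2.40. They disagreed on the smallest, which was in mouse 920 for the main probe set and in mouse 0107 for the others.

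Cavin3, a cavin known to bind protein kinase C delta, was uniform in TPCs and spread in non-TPCs. It was at 5.74, 5.69 and 5.85 in TPCs of mice 1127, 920 and 0107, against 7.96, 6.65 and 6.38 in non-TPCs. The groups did not overlap, and the smallest distance between them was 0.52. The SD was 0.09 in TPCs and 0.85 in non-TPCs, where mouse 1127 stood above the others, and the difference was -1.24 (SE 0.40). Within mice 1127, 920 and 0107 it was -2.22, -0.97 and -0.52, an order of the mice unlike that of Cav1.

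Cavin1, the cavin on which the coat as a whole depends, gave dim signal in both fractions and probe sets of different sign. The main probe set was at 5.75, 5.94 and 6.06 in TPCs and 5.34, 5.90 and 5.93 in non-TPCs of mice 1127, 920 and 0107. These ranges overlapped, and the difference was 0.19 (SE 0.20), with TPCs higher in 3 of 3 mice. Another Cavin1 probe set was at 4.35, 4.57 and 4.50 in TPCs and 5.16, 4.78 and 4.76 in non-TPCs, a difference of -0.43 (SE 0.15) without overlap, and its TPC values were below the first quartile of their arrays. The dimmest, under the first quartile in all 6 arrays, differed by 0.11 (SE 0.16). The Cavin1 signal on these arrays therefore gave no single direction.

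**Figure D1:**
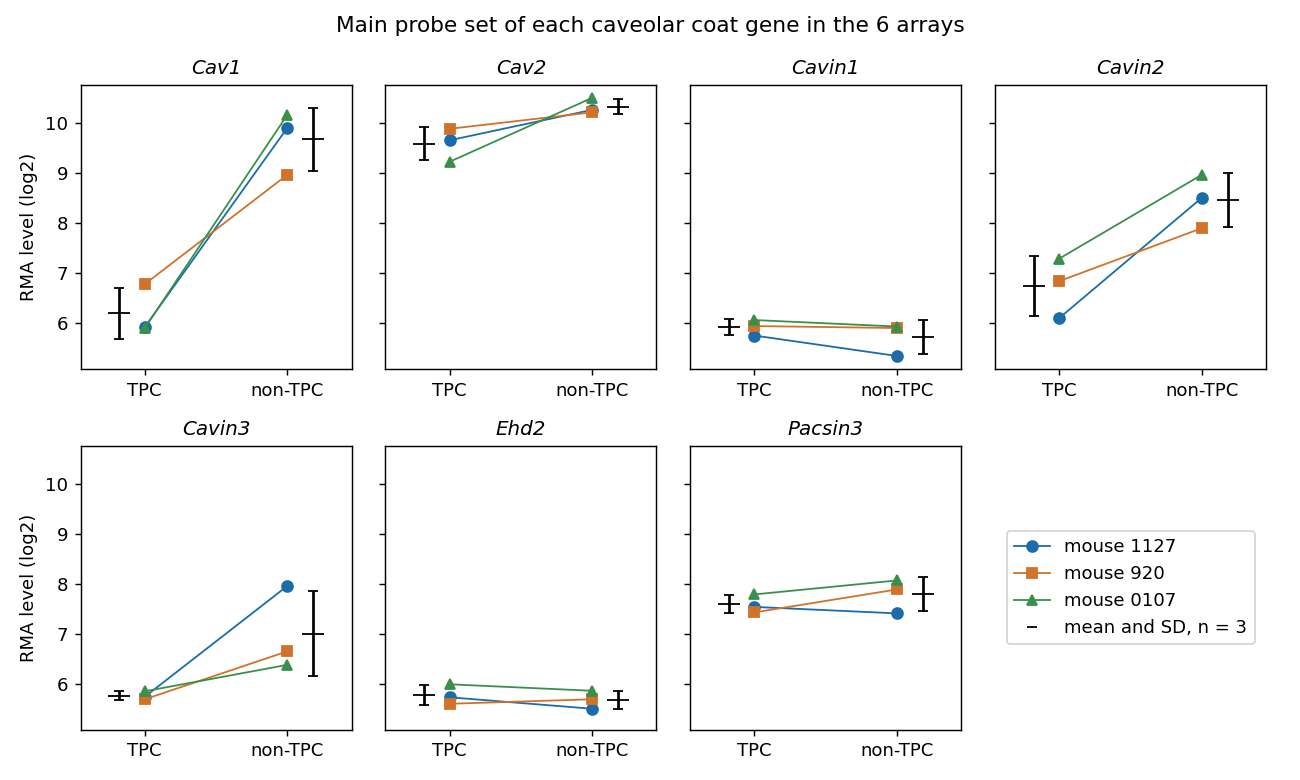
Log2 RMA level of the main probe set of each caveolar coat gene in TPCs (left) and non-TPCs (right), with a line for each mouse and the mean and SD (n = 3) beside the points. Cav1, Cav2, Cavin2 and Cavin3 have all TPC points below all non-TPC points, while those of Cavin1, Ehd2 and Pacsin3 overlap.

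The main probe sets of the membrane-shaping members differed little, and Ehd2, like Cavin1, gave dim signal in both fractions. Ehd2 was at 5.73, 5.60 and 5.99 in TPCs and 5.50, 5.69 and 5.86 in non-TPCs of mice 1127, 920 and 0107, a difference of 0.09 (SE 0.16) with overlapping groups. Of its other 4 probe sets, all with means between 4.14 and 5.31, a single one separated the fractions, at 4.37, 4.50 and 4.52 in TPCs and 5.10, 5.20 and 5.01 in non-TPCs. That probe set differed by -0.64 (SE 0.12), with its TPC values below the first quartile of their arrays. The remaining ones differed by 0.41, -0.12 and 0.14, the last of them under the first quartile in all 6 arrays. Pacsin3, the PACSIN best known from skeletal muscle and heart, was at 7.54, 7.43 and 7.79 in TPCs and 7.41, 7.89 and 8.07 in non-TPCs. Its groups overlapped, with a difference of -0.20 (SE 0.20), and its other probe sets differed by 0.05 and -0.06.

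Across the members, 8 of 18 probe sets, from 6 genes, had all TPC samples below all non-TPC samples, and 0 had them above. Among all 45037 probe sets, 5.08% had TPCs below without overlap and 6.5% had them above. Of the 7 main probe sets 4 did so, against 5.91% of 18193 genes. In the limma fit across all probe sets, which sets a difference against the spread between mice within each fraction, 0 of the 18 passed an adjusted p of 0.05, where 0.0244% of all probe sets did, each of them lower in TPCs. At an unadjusted p under 0.05 the same 8 probe sets were lower, against 3.44% of all, and 0 were higher, against 2.02%. Cav1 was the 1 member to pass in the fits with an intensity trend, with the mouse as a random block and on probe sets above the median level alone. Since the family was chosen with this contrast known, nothing is read from these shares. The median difference was -0.74 over the 7 main probe sets and -0.16 over all 18, beside 0.04 over all genes and over all probe sets.

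**Figure D2:**
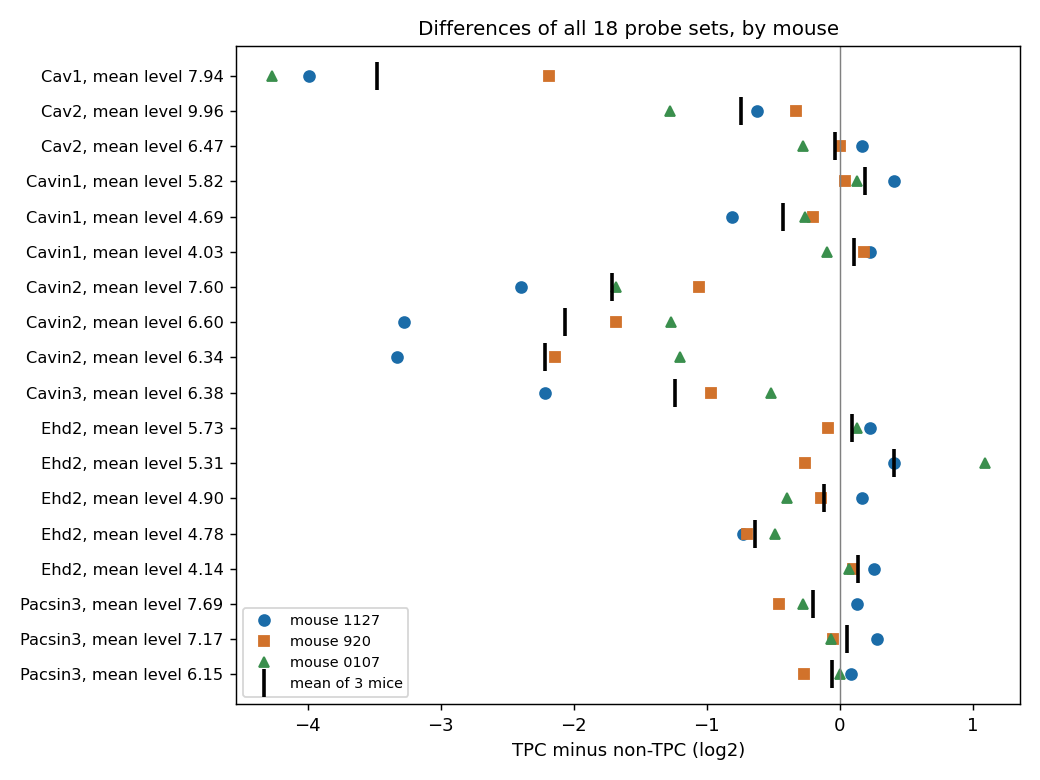
Differences, TPC minus non-TPC on the log2 scale, of the 18 probe sets in each mouse (symbols) and their mean (bar). Each row names the gene and the mean level of the probe set over the 6 arrays. The row of Cav1 lies furthest to the left, at a mean of -3.48, and the 3 rows of Cavin2 lie between -2.22 and -1.71, while those of Pacsin3 stay between -0.20 and 0.05.

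Markers of cell types that carry caveolae, and of other cells of the lung, were set beside these values. Of all the listed markers 2 alveolar type 2 genes, Sftpc and Sftpa1, passed the adjusted threshold in limma, both lower in TPCs, and the lists themselves were not tested. For comparison, 13.8% of all genes were lower and 19.7% higher in TPCs of all 3 mice. Levels were summed over each list on the linear scale and are given in log2. The 10 endothelial markers summed to 10.67 to 11.14 in TPCs and 11.06 to 11.48 in non-TPCs, ranges that overlap slightly, and 5 of them were lower in TPCs of all 3 mice. Vwf made up most of that sum in every array but the non-TPC array of mouse 0107. The vascular cadherin gene Cdh5 was at 4.79, 4.92 and 4.55 in TPCs and 6.12, 4.88 and 6.89 in non-TPCs of mice 1127, 920 and 0107, and the tight junction gene Cldn5 at 5.27, 5.26 and 5.20 in TPCs and 7.29, 5.79 and 9.03 in non-TPCs. These genes were highest in non-TPCs of mouse 0107 and lowest in those of mouse 920, as Cav1 was, while Vwf was highest in non-TPCs of mouse 1127 and lowest in those of mouse 0107. The endothelial sum differed by -0.34, -0.39 and -0.61 in mice 1127, 920 and 0107, an order of mice that is not that of Cav1. From most to least lower in TPCs, Pecam1, Cdh5, Kdr, Cldn5, Emcn, Egfl7 and Esam did have the order of Cav1. Tie1, Tek and Vwf did not. Pecam1, Emcn and Tie1 lay below the first quartile in all 6 arrays. In TPCs 6 of the 10 lay below the array median in all 3 samples: Pecam1, Cdh5, Cldn5, Emcn, Tie1 and Tek.

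The 9 alveolar type 1 markers, from which Cav1 and Cav2 were left out, summed to 10.91 to 11.19 in TPCs and 11.12 to 12.53 in non-TPCs. Of these, 4 were lower in TPCs of all 3 mice and 1, Rtkn2, was higher. Their sum differed by -0.80, -1.55 and 0.07 in mice 1127, 920 and 0107, so the difference of the sum was largest in the mouse where that of Cav1 was smallest. The genes were split in mouse 0107, where Emp2 was the largest part of the sum in both samples. There Ager, Clic5, Pdpn and Aqp5 differed by -0.97, -3.36, -1.09 and -0.28. Emp2, Akap5, Rtkn2 and Hopx differed by 0.65, 0.49, 0.20 and 0.14, and Gprc5a by 0.00. Ager, Pdpn and Aqp5 differed most in mouse 920, but Clic5 in mouse 0107. The 10 fibroblast markers summed to 10.68 to 11.73 in TPCs and 11.85 to 14.40 in non-TPCs, with 6 lower in all 3 mice and with differences of -2.68, -1.98 and -0.68. The 9 markers of smooth muscle and pericytes summed to 8.94 to 9.08 in TPCs and 9.17 to 11.26 in non-TPCs, with 4 lower in all 3 mice and differences of -2.18, -0.43 and -0.22.

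The 7 mesothelial markers summed to 7.93 to 8.15 in TPCs and 9.42 to 10.07 in non-TPCs, with 6 lower in all 3 mice and differences of -1.57, -1.38 and -1.92 in mice 1127, 920 and 0107. The 7 measured alveolar type 2 markers summed to 11.58 to 12.29 in TPCs and 13.04 to 13.79 in non-TPCs, also with 6 lower in all 3 mice and differences of -1.58, -1.50 and -1.46. The 8 leukocyte markers summed to 10.22 to 10.78 in TPCs and 10.79 to 11.63 in non-TPCs, again with 6 and differences of -1.33, -0.85 and -0.31. Of the others, Coro1a was higher in TPCs of all 3 mice, by 0.16, 0.18 and 0.95 in mice 1127, 920 and 0107. Laptm5, a bright one, differed by -0.64, -0.03 and 0.73. By size of the difference of its sum the mesothelial list had the order of mice of Cav1. Its highest marker in non-TPCs was Gpm6a, at 7.89, 8.14 and 9.60, which made up most of the sum in mouse 0107. Gpm6a and Lrrn4 differed most in mouse 0107, but Msln, Upk3b, Wt1 and Nkain4 in mouse 1127. The sums of the fibroblast, smooth muscle and pericyte, and leukocyte lists had the order of Cavin3, and the alveolar type 2 differences were nearly equal in the 3 mice. Dcn made up most of the fibroblast sum in every array and had the order of Cavin3 itself. Not all genes of these lists had it. Pdgfra and Mfap4 of the fibroblast list and Lcp1 of the leukocyte list had that of Cav1, and others, such as Lum and Ptprc, had neither. With 3 mice few orders are possible, so nothing is read from a shared one. The 7 measured neuroendocrine markers, which mark the labelled tumour cells, were bright in both fractions, at 13.71 to 14.01 in TPCs and 13.44 to 13.77 in non-TPCs, and 2 were higher in TPCs of all 3 mice. The arrays carry no true zero. Below the array median in all 3 TPC samples lay 9 of 10 fibroblast, 5 of 9 smooth muscle and pericyte, 6 of 7 mesothelial, 2 of 9 alveolar type 1, 1 of 7 alveolar type 2, 0 of 8 leukocyte and 0 of 7 neuroendocrine markers. The part of these cell types in the differences of the caveolar genes was not tested.

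**Figure D3:**
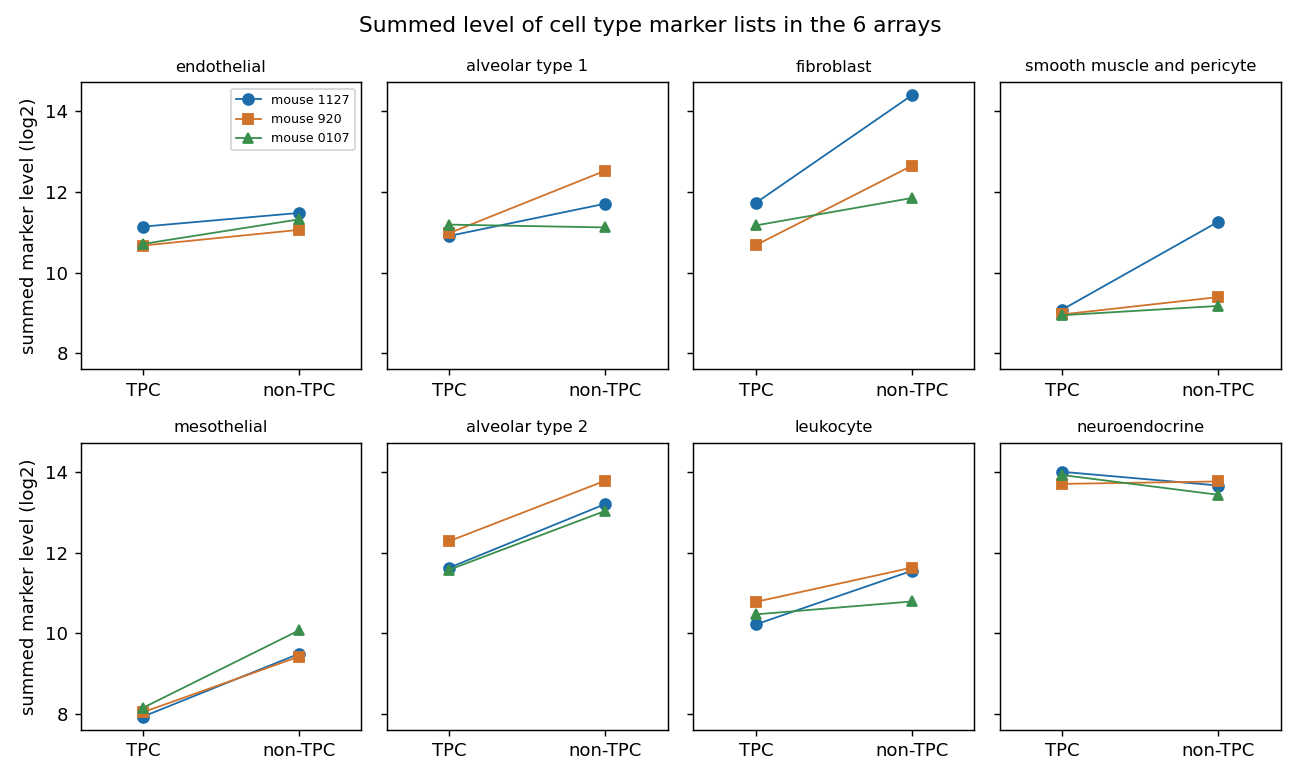
Summed level (log2) of 8 lists of cell type markers in TPCs (left) and non-TPCs (right), with a line for each mouse. The fibroblast sums of 11.85 to 14.40 in non-TPCs lie above those of 10.68 to 11.73 in TPCs, and the neuroendocrine sums lie between 13.44 and 14.01 in all 6 samples.

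Paralogues of the coat and the machinery around it had mean differences smaller than that of Cav1 in every case. Of 20 genes listed for this purpose and measured, 0 passed the adjusted threshold in limma, where 0.0385% of genes did when each was represented by its main probe set. An unadjusted p under 0.05 was reached by 4 that were lower, against 4.42% of genes, and by 2 that were higher, against 2.35%. The list was drawn up with earlier results of these data known, so nothing is read from its shares. The median difference of the 20 genes was 0.01. The muscle forms Cav3 and Cavin4 differed by 0.23 and -0.07, and the Ehd2 paralogues Ehd1, Ehd3 and Ehd4 by -0.30, 0.14 and -0.30. The dynamins, GTPases that cut vesicles from the membrane, differed by 0.26 for Dnm1, 0.12 for Dnm2 and 0.07 for Dnm3. The flotillins, scaffold proteins of other membrane domains, differed by -0.31 for Flot1 and 0.17 for Flot2. Pacsin1, the neuronal PACSIN, was at 8.0, 7.56 and 7.74 in TPCs of mice 1127, 920 and 0107, against 7.48, 7.35 and 6.81 in their non-TPCs. Its TPC value was the higher one in each mouse, by a mean of 0.55 (limma adjusted p = 0.886).

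Among proteins that bind or reside in caveolae, the 4 genes of smallest p were lower in TPCs of 3 of 3 mice, and none passed. Cd36, a fatty acid transporter, was at 4.53, 6.16 and 4.73 in TPCs and 7.40, 7.26 and 7.95 in non-TPCs of mice 1127, 920 and 0107, a difference of -2.39 (SE 0.45, limma adjusted p = 0.353). Mouse 920 had the highest TPC and the lowest non-TPC level, as for Cav1, but another Cd36 probe set of nearly the same mean had its lowest non-TPC level, 7.02, in mouse 1127, against 7.54 in mouse 920. Flna, whose product filamin A ties caveolae to actin, was at 7.11, 6.54 and 6.60 in TPCs and 7.65, 7.63 and 7.35 in non-TPCs (difference -0.79, SE 0.19, limma adjusted p = 0.597). The water channel gene Aqp1 was at 4.94, 4.46 and 4.50 in TPCs and 6.43, 5.70 and 8.62 in non-TPCs (difference -2.28, SE 0.71, limma adjusted p = 0.775). The insulin receptor gene Insr was at 8.09, 8.04 and 8.08 in TPCs and 8.53, 8.30 and 8.60 in non-TPCs (difference -0.41, SE 0.13, limma adjusted p = 0.775). The groups of these 4 genes and of Flot1, there by a gap of only 0.03, did not overlap. So 5 of 20 lay lower in TPCs without overlap, against 5.91% of all genes. Pacsin1, Ror1 and Nos3 lay higher in TPCs without overlap, 3 of 20 against 6.71% of all genes, with small gaps of 0.08, 0.11 and 0.02. The other Pacsin1 probe set differed by 0.51 with overlap. The other Ror1 probe sets, under the first quartile in all 6 arrays, differed by 0.02 and -0.27 with overlap. Here too nothing is read from the shares. Plvap, which forms the diaphragms of endothelial caveolae, and Nos3, the endothelial nitric oxide synthase, differed by -0.33 and 0.21, and Plvap was lower in TPCs of 2 of 3 mice. Ror1, a receptor that scaffolds CAV1 with cavin-1, differed by 0.36 and the kinase genes Src and Abl1 by 0.35 and -0.04.

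**Figure D4:**
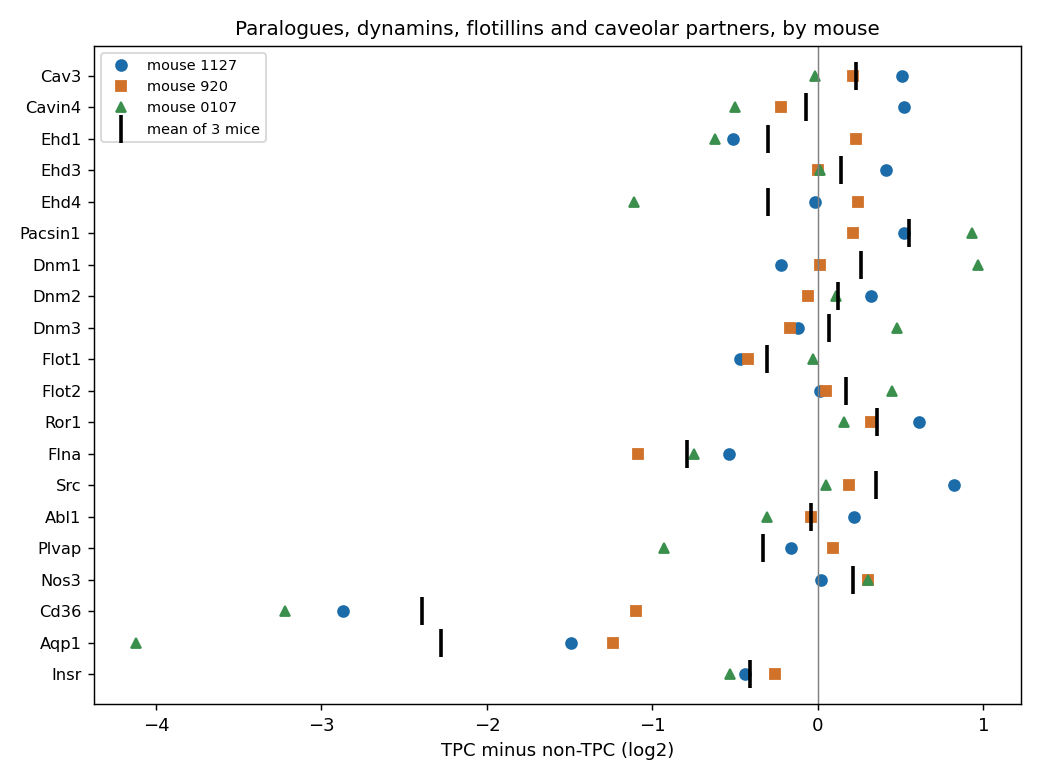
Differences, TPC minus non-TPC on the log2 scale, of 20 genes related to caveolae in each mouse (symbols) and their mean (bar). Cd36 and Aqp1 lie furthest to the left, at means of -2.39 and -2.28, and the other means lie between -0.79 and 0.55.

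Over the 6 arrays the levels of Cav2 and Cavin2 followed that of Cav1 with a Pearson r of 0.929 and 0.918, ranks 112 and 138 among 18192 genes. Cavin3 followed it with r = 0.768, at rank 767. Pacsin3, Ehd2 and Cavin1 had r of 0.335, -0.342 and -0.432. These values hold the difference between the fractions, which the samples share, and r was over 0.9 for 184 genes, or 1.011%. The genes with a mean above 6.91, the median over genes, whose levels were most like those of Cav1 were S100a9, Lpar6, Tgm2, Lpl, Cep95, Vim, Plk2, Rbm33, S100a8 and Rchy1, with r from 0.979 to 0.992. Their differences ranged from -3.47 for Vim to -0.31 for Rchy1. The lipase gene Lpl was at 8.25, 8.73 and 8.17 in TPCs and 10.91, 9.74 and 10.97 in non-TPCs of mice 1127, 920 and 0107. Its order of samples was that of Cav1 within each fraction, with mouse 920 highest among TPCs and lowest among non-TPCs. Tgm2 had this order too and was lower in TPCs with a limma adjusted p of 0.0311. These genes were picked for their likeness to Cav1 in the same 6 arrays, so nothing is read from a shared order.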

How the data were processed

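Expression was measured on 1-colour arrays in 6 samples. The labelling kit is a whole-transcript one, per the labels, whereas the probe sets belong to a 3′ expression array. The authors deposited log2 signals per probe set, computed by RMA per the submitters' processing notes. Its version and probe set definition are not stated there. That the base is 2 was inferred from the range of 2.70 to 14.81. Of 45101 probe sets, 64 controls were left out, 34945 had 1 symbol and 932 several, from which no gene was named. Symbols were taken from RefSeq (GRCm38.p6) for the 18032 of 18193 genes whose Entrez identifier was found there, whether or not the symbol changed.

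The fractions were compared over all 45037 probe sets in R 4.3.3 with limma 3.58.1 (two-sided, fraction as the only term, Benjamini-Hochberg), and SEs are its moderated ones. The steps were tested on simulated data. The members, lists and tests were chosen with earlier results of these data known. Named are all member probe sets, the 4 related genes of smallest p, and the 10 genes most like Cav1; other related genes are given for completeness. Pairing comes from the mouse in the titles: deviations from the fraction means correlated at 0.31, 0.50 and 0.38 within mice 1127, 920 and 0107, against at most -0.06 between mice. Deviations within a fraction cancel out, so positive values within mice force the values between mice to be negative on average. Alternatives were mouse blocks, an intensity trend, a filter on dim probe sets, gene-level fits, median centring and leaving out mice or arrays.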

Additional observations from a re-analysis of the deposited data

How the results depend on the processing

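Over all probe sets 11 passed. With the mouse as a replicate block 9 passed, and the block changed no call of a member or related gene. The count was 24 with an intensity trend, 52 with the mouse as a random block and 35 with probe sets above the median level alone, and under each of these 1 member passed, Cav1. It was 0 to 72 without a single mouse or array: 72 without the non-TPC array of mouse 0107, 18 without that of mouse 920 and 0 otherwise. No member passed in those fits, and no related gene in any fit run. Of 258 member differences recomputed, 254 moved by less than 1 SD between samples. Many of them could not move. The intensity trend, the mouse blocks, the filter on level and the choice of 1 probe set per gene leave a difference of means as it is. Cav1 ranged from -4.13 to -3.09 when a mouse or array was left out, Cav2 from -0.95 to -0.47, Cavin2 from -2.04 to -1.37 and Cavin3 from -1.59 to -0.74. Cav2 was at -0.39 as the mean of its probe sets. The number of 3 arrays per fraction limits the precision.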

Other observations

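The genes next to the members in the RefSeq order were looked at after the members' values had been seen. Tes, the gene on the far side of Cav2, which encodes a protein of focal adhesions, differed by 0.20 (TPC minus non-TPC), with TPCs above non-TPCs in 2 of 3 mice. Met, the gene on the far side of Cav1, encodes the receptor of hepatocyte growth factor. It was at 7.08, 6.40 and 4.65 in TPCs and 8.45, 8.94 and 5.87 in non-TPCs of mice 1127, 920 and 0107. Met was lower in TPCs of 3 of 3 mice, with differences of -1.37, -2.54 and -1.22 on the log2 scale, and the groups overlapped because both samples of mouse 0107 were low. Its largest difference was in mouse 920, where that of Cav1 was smallest.

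Next to Cavin2, Tmeff2 was at 7.17, 6.11 and 6.93 in TPCs and 8.05, 6.49 and 7.73 in non-TPCs, with overlapping groups, and Nabp1 differed by 0.22. The neighbours of Cavin3, Cckbr and Smpd1, differed by 0.06 and 0.03.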
